A study of Mus musculus with 10 samples.

Results

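The receptors for prolactin, growth hormone, leptin and a set of inflammatory cytokines, with 2 of the feedback inhibitors that these receptors induce, were followed across purified islet cell types of the mouse. The 10 genes were given by name: the receptor genes Prlr, Ghr, Lepr, Il6ra, Il6st, Il1r1, Il22ra1 and Ifngr1, and the inhibitor genes Cish and Socs2. All 10 have a row among the 19213 rows of the expression table, and 8 of them were among the 12700 genes that reached the level needed for testing.

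RNA was sequenced from delta cells (2 libraries), alpha cells (3 libraries) and beta cells (5 libraries) of adult mice, sorted by fluorescence. Every animal carried mIns1-H2b-mCherry, a nuclear red reporter driven by the mouse Ins1 promoter that marks beta cells, together with a floxed YFP allele. Recombination of the YFP allele by Sst-Cre, driven from the somatostatin gene, marked delta cells, and recombination by Gcg-cre, driven from the glucagon gene, marked alpha cells. Beta cells were sorted from islets that also gave the delta or the alpha cells, and the labels do not state which libraries have islets in common. The titles of 4 pairs of a beta with a delta or alpha library of the same sex carry consecutive numbers, and 4 titles carry a b after the number, without a stated meaning. The titles of alpha replicates 1 and 2 differ only by this b, as do those of beta replicates 4 and 5. The labels do not say whether such libraries come from the same pool, and each was counted as a separate library. Each pool held islets of 10 to 12 animals of 1 sex, kept overnight at 5.5 mM glucose before sorting, so receptors were measured after a night in culture. Delta cells had 1 female and 1 male library, alpha cells 1 female and 2 male libraries, and beta cells 3 female and 2 male libraries. The labels do not call the libraries of a type separate pools, so p-values rest on the spread among these 10 libraries alone, and that spread may be technical.

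Prolactin, growth hormone and leptin act through class I cytokine receptors, which have no enzyme of their own and signal through Janus kinases, above all Jak2, and STAT transcription factors. STAT5 then switches on Cish and Socs2, whose proteins dampen the same receptors, so that these genes serve as readouts of signalling as well as brakes on it. In the islet, prolactin and placental lactogen acting on Prlr are known for driving the expansion of beta cells in pregnancy, and interleukin 1 acting on Il1r1, often together with interferon gamma, is known for impairing beta cells in inflammation.

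The sort was checked against hormone and transcription factor genes. Somatostatin (Sst), glucagon (Gcg) and insulin (Ins2) were each highest in the cell type that the labels name, and all 4 delta cell markers, all 6 alpha cell markers and all 7 beta cell markers differed from beta libraries in the direction of the label, in delta libraries for the first list, in alpha libraries for the second and in both for the third. Ins1 and Ins2 in delta libraries stood at 1.02% and 1.03% of their beta mean, and in alpha libraries at 0.692% and 0.752%. Gcg in delta libraries stood at 8.72% of its alpha mean. All 6 alpha cell markers were also called higher in delta libraries against beta libraries, beside 37.4% of all tested genes. In alpha against beta libraries 3 of the 4 delta cell markers were called higher, beside 23.7% of all. The shares of all tested genes called lower in these comparisons were 13.3% and 30.3%. Ppy, the hormone of PP cells, averaged 17550 RPKM in delta, 5268 RPKM in alpha and 607.9 RPKM in beta libraries. The summed acinar markers ran between 579 and 784 RPKM in delta, 77.1 and 2820 RPKM in alpha and 176 and 8720 RPKM in beta libraries. The part of such other cells in the results was not tested. Library totals ran between 16688097 and 26684086 reads. In bulk libraries, fewer cells of a type and less RNA per cell cannot be told apart.

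Prlr, the prolactin receptor, was at least 18.3 RPKM in beta libraries and near 1 RPKM or lower in the other types. It read 1.01 and 1.03 RPKM (reads per kilobase of transcript, as a share of all reads of the library) in delta libraries, 0.357, 0.468 and 0.368 RPKM in alpha libraries, and 18.3, 28.5, 24.3, 44.4 and 34.9 RPKM in beta libraries. Every beta library was far above every delta and alpha library, and the delta and alpha libraries did not overlap either. The lowest beta library held 5799 Prlr reads, while delta libraries held 273 and 257 reads and alpha libraries 80, 106 and 86 reads, so the low values outside beta cells were still counted well above 0. Differences were tested with limma on log2(RPKM + 1), with cell type and sex as terms over all 10 libraries, and a gene was called at an adjusted p under 0.05. Prlr fell by 3.85 on that log2 scale in delta libraries against beta libraries (SE 0.232, adjusted p = 1.67e-06) and by 4.32 in alpha libraries against beta libraries (SE 0.208, adjusted p = 3.77e-07). On the RPKM scale the delta mean was 3.38% and the alpha mean 1.32% of the beta mean, both higher than the 0.692% to 1.03% at which the insulin genes stood in these libraries. The part that beta cell RNA plays in the Prlr reads of delta and alpha libraries was not tested.

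Between delta and alpha libraries the Prlr means were 1.02 and 0.398 RPKM, and the difference was not called (log2 fold change 0.47, 95% interval -0.10 to 1.05, adjusted p = 0.174). It was called in 2 of 17 alternatives, over which the difference ran between 0.24 and 1.12 and the adjusted p between 0.0141 and 0.699. A pseudocount of 0.1 in place of 1 raised the difference to 1.12 (adjusted p = 0.0141), and a fit of the delta and alpha libraries alone called it as well (log2 fold change 0.53, adjusted p = 0.0155). The mean Prlr level was highest in beta and lowest in alpha libraries, with the step between delta and alpha libraries not called as reported. Among the 12700 tested genes, the mean Prlr level stood at percentile 5.9 in delta, 3.5 in alpha and 82.4 in beta libraries.

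The mouse Prlr gene (chromosome 15, 10177238 to 10349180, plus strand, GRCm38, as for all genes here) has 3 start sites in the RefSeq promoter table, and 1 of the 3 windows, reaching 250 bases before and 50 bases after the start, holds the STAT motif TTCNNNGAA. That window is shown because Prlr signals through STAT factors, which bind this motif. The 250 bases before this start, at chr15:10223656-10223905 on the plus strand (GRCm38.p6), are printed with the motif in capitals, 110 bases before the start.

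Prlr: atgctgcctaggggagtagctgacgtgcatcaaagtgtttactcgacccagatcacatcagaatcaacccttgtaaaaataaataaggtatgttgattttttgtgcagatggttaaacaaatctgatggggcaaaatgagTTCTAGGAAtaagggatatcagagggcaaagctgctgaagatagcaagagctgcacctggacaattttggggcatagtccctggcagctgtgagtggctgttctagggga

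The motif reads the same on both strands, and 8.3% of the 32851 promoter windows of this length in the table hold it. A match is a description of the letters and not a measured STAT site. The gene-level values do not tell which Prlr start, or which of the long and short receptor isoforms, the reads came from.

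Ghr, the growth hormone receptor and the nearest relative of Prlr in the list (chromosome 15, 3317760 to 3583492, minus strand), had another order: delta, then beta, then alpha. It read 75.4 and 68.0 RPKM in delta libraries, 18.7, 21.9 and 22.7 RPKM in alpha libraries, and 33.3, 37.8, 54.7, 50.7 and 62.5 RPKM in beta libraries. None of the 3 ranges overlapped, with the delta libraries highest and the alpha libraries lowest. Ghr rose in delta against alpha libraries by 1.70 on the log2 scale (SE 0.241, adjusted p = 0.000559) and fell by 1.08 in alpha against beta libraries (SE 0.197, adjusted p = 0.00153). The smaller difference between delta and beta libraries was called at 0.62 (SE 0.22, adjusted p = 0.0403), but it kept its call in only 6 of 17 alternatives. With libraries rescaled by median ratios it was 0.33 (adjusted p = 0.106), without delta replicate 1 it was 0.46 (adjusted p = 0.3), and over the 17 alternatives the adjusted p ran between 0.017 and 0.3.

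The balance of the 2 hormone receptors therefore separated beta cells from the other types. The ratio of Prlr to Ghr, both per kilobase, was 0.0134 and 0.0152 in delta libraries, 0.0162 to 0.0214 in alpha libraries and 0.445 to 0.877 in beta libraries. In every library Ghr had the higher RPKM of the pair. This order rests on the gene lengths behind the RPKM, and 4 lengths fit the Ghr values.

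Lepr, the leptin receptor (chromosome 4, 101717404 to 101815352, plus strand), was at the floor of detection in all 3 types. It had 1 and 7 reads in delta libraries, 1, 2 and 2 reads in alpha libraries, and 2, 0, 1, 0 and 1 reads in beta libraries. These are the fewest reads that fit the deposited values. Most libraries lay at or under 3 reads, the limit that a count of 0 allows, which corresponds to 0.0169 to 0.0271 RPKM for this gene. Lepr reads were therefore too few in these 10 libraries for a comparison of the types.

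**Figure D1:**
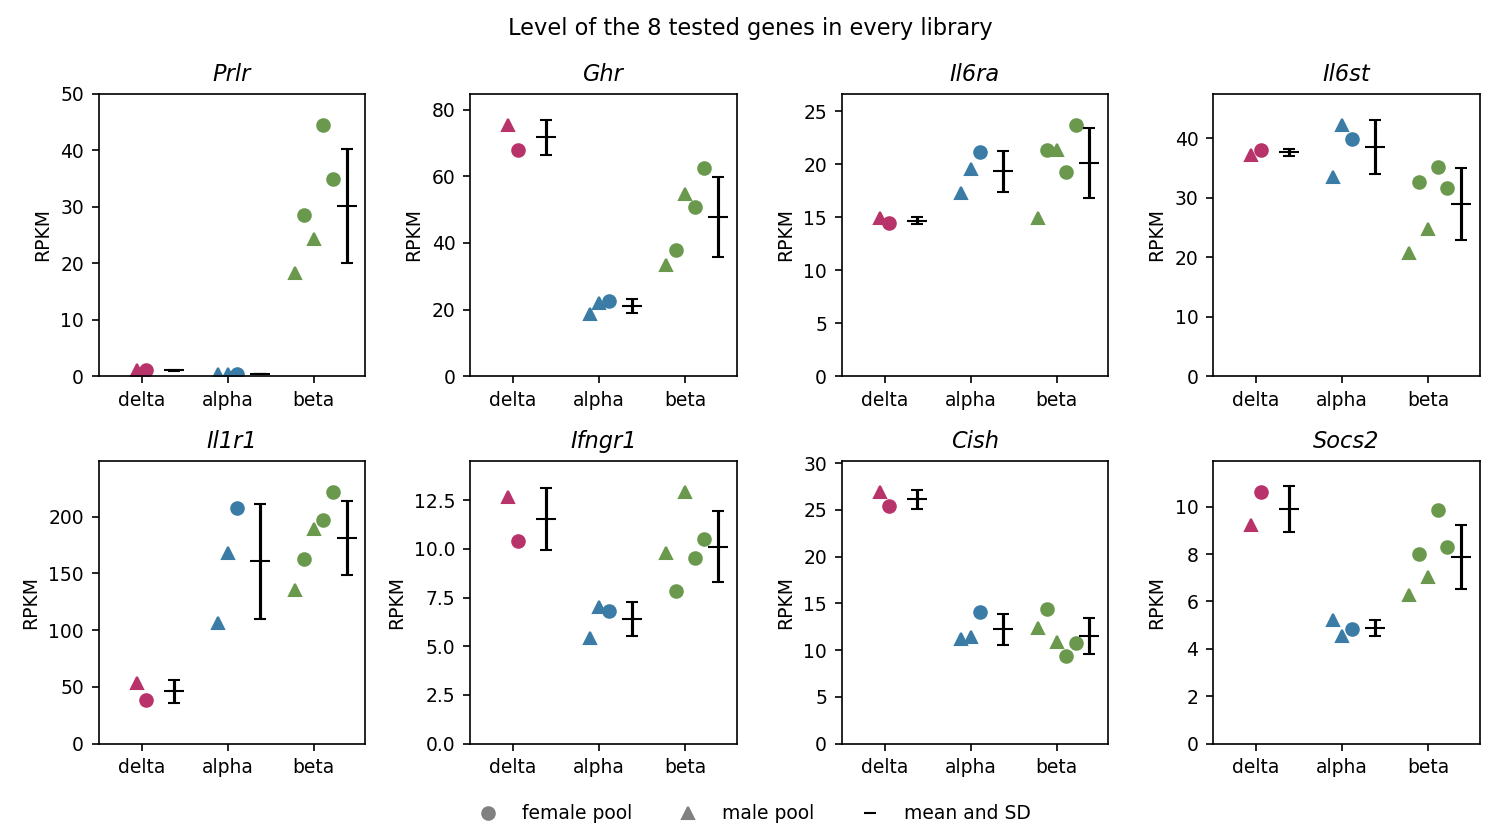
RPKM of the 8 tested genes in every library (y axis, linear from 0), with delta, alpha and beta libraries from left to right. Circles are libraries of female pools and triangles of male pools, and the bar beside each group is its mean with SD. Prlr is near 0 outside beta libraries, Il1r1 is lowest in the 2 delta libraries, and Cish is highest in them.

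Il6st encodes gp130, the signalling chain shared by the receptors of interleukin 6, leukaemia inhibitory factor and their relatives, and Il6ra encodes the chain that binds interleukin 6 itself. Il6st lies on chromosome 13 (112464070 to 112510086, plus strand) and Il6ra on chromosome 3 (89864059 to 89913196, minus strand). Both were present in all 3 types, and the highest type mean of each gene was at most 1.37 times its lowest. Il6st read 37.2 and 38.0 RPKM in delta libraries, 33.5, 42.2 and 39.8 RPKM in alpha libraries, and 20.7, 32.6, 24.7, 35.1 and 31.6 RPKM in beta libraries. Delta libraries lay above every beta library, whereas the lowest alpha library fell within the beta range. Il6st rose in alpha against beta libraries by 0.50 (SE 0.133, adjusted p = 0.0113), and this call held in all 17 alternatives. The delta versus beta difference was called at 0.42 (SE 0.149, adjusted p = 0.0395) and held in 8 of 17 alternatives, with 0.13 (adjusted p = 0.406) after median-ratio scaling and 0.26 (adjusted p = 0.36) without delta replicate 1. Delta and alpha libraries, neighbours in the order, differed by -0.08 (95% interval -0.44 to 0.29, adjusted p = 0.746). None of the 17 alternatives left out the 4 libraries with a b in their titles together. Without them 1 alpha library remains, and the alpha versus beta difference of Il6st was 0.48.

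Il6ra read 14.9 and 14.5 RPKM in delta libraries, 17.3, 19.5 and 21.1 RPKM in alpha libraries, and 14.9, 21.3, 21.3, 19.3 and 23.7 RPKM in beta libraries. The delta libraries lay at the low end, where 1 beta library joined them. Il6ra fell by 0.40 in delta against beta libraries (SE 0.145, adjusted p = 0.0462), a call that held in 5 of 17 alternatives, with an adjusted p between 0.000785 and 0.351. Leaving out delta replicate 2 moved the difference to -0.26 (adjusted p = 0.351). Alpha and beta libraries differed by 0.00 (95% interval -0.29 to 0.30, adjusted p = 0.992). Against alpha libraries, delta libraries were at -0.40 without a call (adjusted p = 0.078), and median-ratio scaling gave -0.69 (adjusted p = 0.00185). The ratio of Il6ra to Il6st was 0.4 and 0.38 in delta libraries, 0.462 to 0.531 in alpha libraries and 0.549 to 0.864 in beta libraries. The binding chain thus had the lower RPKM of the pair in every library, an order that rests on the gene lengths behind the RPKM.

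Il1r1, the signalling receptor of interleukin 1 (chromosome 1, 40225080 to 40317257, plus strand), was the most abundant of the 10 genes in alpha and beta libraries and was much lower in delta libraries. It read 53.4 and 38.8 RPKM in delta libraries, 107, 168 and 207 RPKM in alpha libraries, and 136, 163, 189, 197 and 221 RPKM in beta libraries. Both delta libraries lay below every other library, and the alpha and beta ranges overlapped. Il1r1 fell by 1.93 in delta against beta libraries (SE 0.251, adjusted p = 0.000256) and by 1.78 in delta against alpha libraries (SE 0.275, adjusted p = 0.00093), and both calls held in all 17 alternatives. Alpha against beta libraries gave -0.15 (95% interval -0.66 to 0.36, adjusted p = 0.595). Among tested genes the mean level stood at percentile 89.1 in delta, 98.7 in alpha and 98.5 in beta libraries, so that the gene was still well detected where it was lowest. None of the 17 alternatives left out the 4 libraries with a b in their titles together. Without them 1 alpha library remains, and the delta versus alpha difference of Il1r1 was -1.23.

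Markers of immune cells, which also carry interleukin 1 receptors, were lower in delta and alpha libraries than in beta libraries. The sum over the 16 listed immune markers was 78.2 to 91.9 RPKM in delta, 25.5 to 45 RPKM in alpha and 128 to 243 RPKM in beta libraries. Of 11 tested, 10 were lower in delta libraries with C1qa as the exception, beside 13.3% of all tested genes. All 11 were lower in alpha libraries, beside 30.3% of all. Lyz2, Csf1r, C1qb, Tyrobp and Laptm5 reached the level needed for testing only in beta libraries, so they could not have been called higher elsewhere. Emr1, Lyz2, Tyrobp and Cd3e were at 0 in both delta libraries, and Cd3e in all 3 alpha libraries. With C1qa, the exception, left out, the sums of the other 15 were 20.5 and 18.4 RPKM in delta and 11.5, 31.2 and 14.3 RPKM in alpha libraries. In beta libraries they were 107 to 203 RPKM. The delta sums lay within the alpha range without C1qa and above it with all 16 markers. The Il1r1 mean of alpha libraries was 88.6% of the beta mean. Endothelial markers summed to 8.21 to 10.8 RPKM in delta, 6.85 to 10.3 RPKM in alpha and 4.88 to 10.7 RPKM in beta libraries. The part of other cells in any of these receptor levels was not tested.

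Ifngr1, the binding chain of the interferon gamma receptor (chromosome 10, 19591949 to 19610229, plus strand), is a class II cytokine receptor and was lowest in alpha libraries. It read 12.7 and 10.4 RPKM in delta libraries, 5.42, 7.0 and 6.83 RPKM in alpha libraries, and 9.79, 7.84, 12.9, 9.55 and 10.5 RPKM in beta libraries. The alpha libraries lay below all others, and the delta libraries lay inside the beta range. Ifngr1 fell by 0.62 in alpha against beta libraries (SE 0.147, adjusted p = 0.00671) and rose by 0.78 in delta against alpha libraries (SE 0.181, adjusted p = 0.00816), the last without a call when delta replicate 1 was left out (0.71, adjusted p = 0.0939). Delta and beta libraries differed by 0.17 (95% interval -0.20 to 0.54, adjusted p = 0.407). Over the 17 alternatives this difference ran between -0.10 and 0.26 without a call, so its direction was not settled.

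Il22ra1, the specific chain of the interleukin 22 receptor and also a class II receptor (chromosome 4, 135728172 to 135752140, plus strand), was close to 0 like Lepr. It had 2 and 2 reads in delta libraries, 3, 9 and 4 reads in alpha libraries, and 5, 0, 4, 0 and 14 reads in beta libraries. These are the fewest whole reads that give the deposited values, at a gene length of 5825 bases, which is longer than the 2569 bases of its GENCODE exons. The floor of 3 reads is worth 0.0193 to 0.0309 RPKM for this gene, and 5 of the 10 libraries were above it. The highest alpha library (0.0915 RPKM) and the highest beta library (0.0901 RPKM) were close, 2 beta libraries were at 0, and no order of levels could be read.

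Cish, an inhibitor of STAT5 signalling that STAT5 itself induces (chromosome 9, 107296026 to 107302784, plus strand), was higher in delta libraries than in both other types. It read 26.9 and 25.4 RPKM in delta libraries, 11.2, 11.4 and 14.1 RPKM in alpha libraries, and 12.4, 14.4, 10.9, 9.32 and 10.8 RPKM in beta libraries. Delta libraries lay above every other library, and the alpha and beta ranges overlapped. Cish rose by 1.13 in delta against beta libraries (SE 0.158, adjusted p = 0.000401) and by 1.04 in delta against alpha libraries (SE 0.173, adjusted p = 0.00145), and both calls held in all 17 alternatives. Alpha against beta libraries gave 0.09 (95% interval -0.23 to 0.41, adjusted p = 0.595). None of the 17 alternatives left out the 4 libraries with a b in their titles together. Without them 1 alpha library remains, and the delta versus alpha difference of Cish was 1.20.

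The Cish window in the RefSeq table is shown because it holds the STAT motif in tandem, beginning at bases 1 and 12 counted from the start (base 1), where only 0.457% of all windows hold 2 or more. The 30 bases at chr9:107296654-107296683 on the plus strand (GRCm38.p6) are given with both motifs in capitals.

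Cish: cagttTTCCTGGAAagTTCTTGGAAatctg

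Among the 10 genes, 9 have at least 1 window in the table, with 14 windows in all, and the Cish window and the Prlr window printed above are the 2 that hold the motif. Socs2 has no entry in it. The absence of these letters from the other 12 windows says nothing of STAT binding elsewhere.

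Socs2, the inhibitor best known for restraining growth hormone signalling (chromosome 10, 95385362 to 95417180, minus strand), followed the order of Ghr. It read 9.23 and 10.6 RPKM in delta libraries, 5.22, 4.55 and 4.85 RPKM in alpha libraries, and 6.26, 8.00, 7.01, 9.84 and 8.29 RPKM in beta libraries. The alpha libraries lay below all others, and 1 beta library reached into the delta range. Socs2 rose by 0.86 in delta against alpha libraries (SE 0.141, adjusted p = 0.00131) and fell by 0.53 in alpha against beta libraries (SE 0.115, adjusted p = 0.00402). The alpha versus beta call was lost when alpha replicate 3 was left out (-0.41, adjusted p = 0.0541). Delta and beta libraries differed by 0.33 without a call (adjusted p = 0.0579), and leaving out beta replicate 4 gave 0.38 (adjusted p = 0.0306). The ratio of Cish to Socs2 was 2.91 and 2.39 in delta, 2.14 to 2.91 in alpha and 0.947 to 1.98 in beta libraries. Over the 10 libraries, Pearson's r of log2(RPKM + 1) between Socs2 and Ghr was 0.901 and that between Ifngr1 and Ghr was 0.906. These coefficients describe libraries that fall into 3 cell types, so they follow the order of the types.

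**Figure D2:**
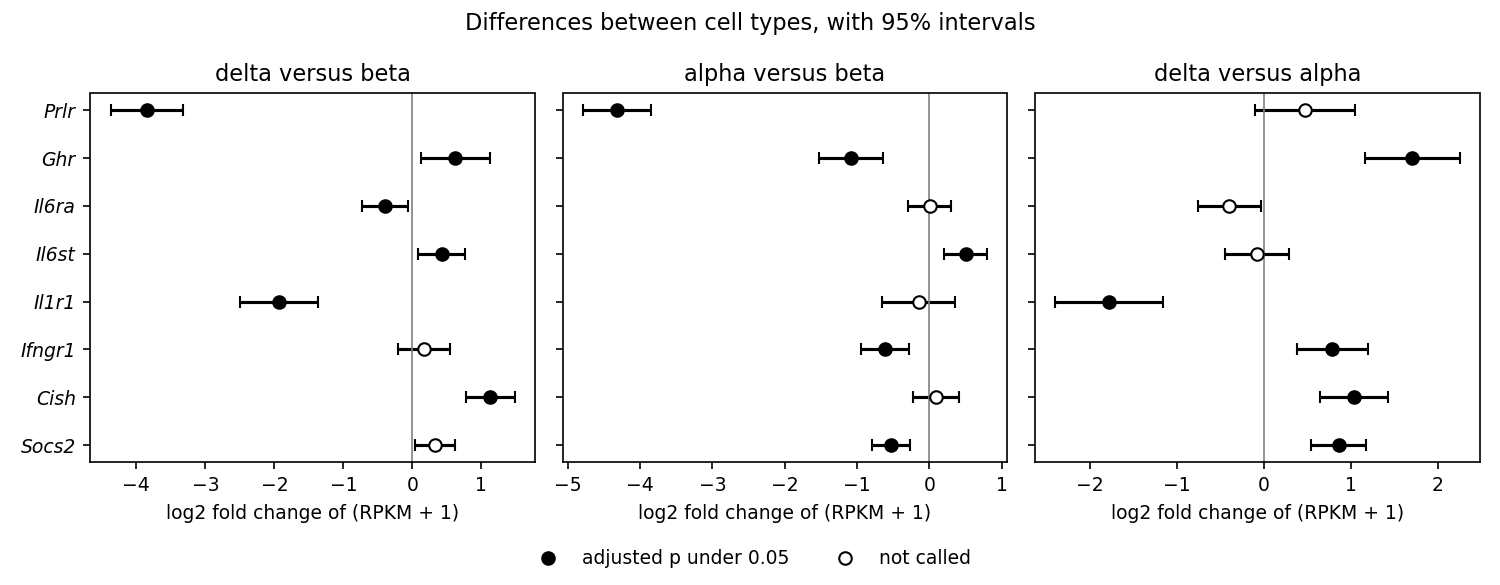
Difference of each tested gene on the log2(RPKM + 1) scale (x axis) for delta versus beta, alpha versus beta and delta versus alpha libraries, with 95% intervals from limma. Filled points were called at an adjusted p under 0.05. Prlr is far below 0 in both comparisons with beta libraries, and Il1r1 is below 0 in both comparisons of delta libraries.

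Counted over the list, 3 of the 8 tested genes were called higher in delta than in beta libraries (Ghr, Il6st and Cish) and 3 lower (Prlr, Il6ra and Il1r1), while 37.4% of all tested genes were called higher and 13.3% lower. In alpha against beta libraries 1 was called higher (Il6st) and 4 lower (Prlr, Ghr, Ifngr1 and Socs2), against 23.7% and 30.3% of all tested genes. In delta against alpha libraries 4 were called higher (Ghr, Ifngr1, Cish and Socs2) and 1 lower (Il1r1), against 32.1% and 5.89%. Differences between types were thus common among all genes, and a call by itself did not set the list apart. The median log2 fold change of the 8 genes was 0.249 in delta versus beta, -0.339 in alpha versus beta and 0.629 in delta versus alpha libraries, beside 0.253, -0.024 and 0.26 for all tested genes. The first 2 of these comparisons share the beta libraries. Median-ratio scaling brought the median of all genes to -0.001, -0.012 and -0.011 and the share of higher calls in delta versus beta libraries to 50.2%, against 73.7% as deposited. Under it 1 gene (Cish) was called higher in delta than in beta libraries, and 2 (Il6ra and Il1r1) lower in delta than in alpha libraries. The corresponding share of higher calls in delta versus alpha libraries was 58.2%, against 84.5% as deposited. Without the 4 libraries with a b in their title, which leaves 1 alpha library, 0 genes were called higher and 1 lower in alpha than in beta libraries, and 2 higher and 0 lower in delta than in alpha libraries.

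Pools of both sexes were available for each type. With cell type as a term, 0 of the 8 tested genes were called by limma between female and male libraries, and 1 of them, Il6st, had an unadjusted p under 0.05 (log2 fold change 0.30, adjusted p = 0.77). Among all tested genes 6, or 0.0472%, were called for sex, and 634 had an unadjusted p under 0.05. Within beta cells, Prlr read 28.5, 44.4 and 34.9 RPKM in female libraries and 18.3 and 24.3 RPKM in male libraries. The sexes did not overlap, and the female mean was 1.69 times the male mean (exact permutation test, two-sided p = 0.2, n = 3 and 2). Il6st averaged 33.1 RPKM in female and 22.7 RPKM in male beta libraries, and Socs2 8.71 and 6.64 RPKM, also without overlap. These 3 of the 8 tested genes were higher in every female than in every male beta library, as were 14.1% of all tested genes. Il6st and Socs2 each gave a two-sided exact permutation p of 0.1, the smallest that 3 against 2 libraries allow. This exact test therefore cannot reach 0.05. It also counts beta replicates 4 and 5, both female, as separate libraries, though their titles differ only by a b.

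Prlr in the female and male delta libraries read 1.03 and 1.01 RPKM, and in alpha libraries 0.368 RPKM for the female pool and 0.357 and 0.468 RPKM for the male pools. The female excess of the beta libraries was not seen there, but with levels this low and 1 female library in each type the difference between types was tested only weakly. The interaction of cell type (alpha versus beta) and sex was called for 0 of the 8 genes and for 0% of all 12700 (147 genes, and 0 of the 8, had an unadjusted p under 0.05 in limma). For Prlr the interaction was -0.76 (95% interval -1.61 to 0.08, adjusted p = 1).

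**Figure D3:**
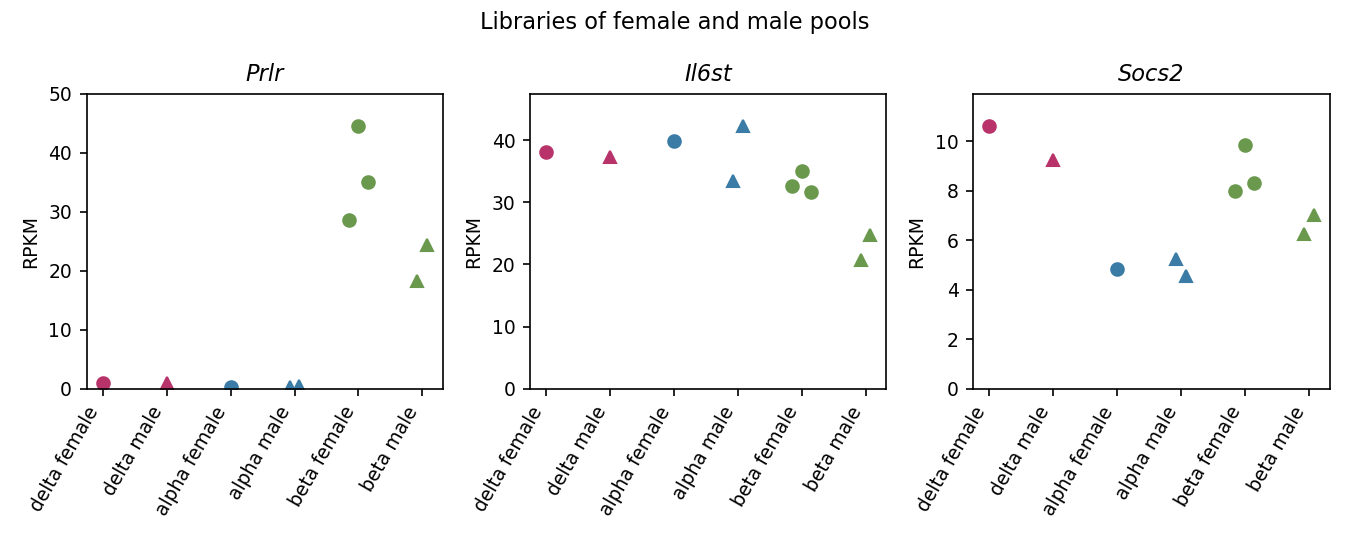
RPKM of Prlr, Il6st and Socs2 (y axis, linear from 0) in libraries of female pools (circles) and male pools (triangles) of each cell type, 1 point per library. In beta cells the 3 female libraries lie above the 2 male libraries for all 3 genes, without a call for sex.

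Other receptors that use gp130 or related chains were counted from a list of 31 class I receptor genes, of which 11 could be tested. In delta against beta libraries 2 rose and 4 fell, beside 37.4% and 13.3% of all tested genes. In alpha against beta libraries 0 rose, 6 fell and 5 were not called, beside 23.7% and 30.3% of all tested genes. The delta counts were 0 higher and 2 lower without delta replicate 1 and 1 and 2 without delta replicate 2, and 1 was called higher with median-ratio scaling or without alpha replicate 3 or beta replicate 1, 2 or 4. In alpha libraries 1 was called higher without beta replicate 3 or 5, and 3 under median-ratio scaling. The lower count in delta libraries was 5 under median-ratio scaling. Over the alternatives run, lower counts ran between 2 and 8 in delta and between 5 and 12 in alpha libraries, where leaving out the filter tests more genes. Cntfr, the binding chain for ciliary neurotrophic factor, averaged 2.01 ± 0.152 RPKM in delta (SD, n = 2), 0.873 ± 0.276 RPKM in alpha (n = 3) and 25.9 ± 5.29 RPKM in beta libraries (n = 5). Like Prlr it was highest in beta and lowest in alpha libraries. It fell by 3.14 in delta (adjusted p = 1.84e-06) and by 3.83 in alpha libraries (adjusted p = 2.5e-07) against beta libraries. Lifr, the partner of gp130 for leukaemia inhibitory factor, averaged 1.95 RPKM in delta, 7.57 RPKM in alpha and 6.20 RPKM in beta libraries, and fell by 1.26 in delta against beta libraries (adjusted p = 0.00015). Cntfr and Lifr were thus both low in delta cells, in which Il6st itself was at 37.6 RPKM.

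Of 7 tested class II receptors beside Ifngr1, 4 were called higher and 3 were not called in delta against beta libraries (37.4% of all tested genes were called higher), and 3 were higher and 4 not called in alpha against beta libraries (23.7% of all). The delta count was 2 without delta replicate 1, without delta replicate 2 or with median-ratio scaling. Leaving out alpha replicate 1 in the delta comparison, or alpha replicate 2 in the alpha comparison, gave 1 lower call. Median-ratio scaling gave 1 lower call in each of these comparisons. Ifnlr1, the specific chain for type III interferon, averaged 2.57 RPKM in delta, 1.78 RPKM in alpha and 0.421 RPKM in beta libraries and rose in both against beta libraries (log2 fold changes 1.35 and 1.01, adjusted p = 3.72e-05 and 9.97e-05). Ifngr2, the second chain of the interferon gamma receptor, averaged 6.23, 6.07 and 8.70 RPKM in delta, alpha and beta libraries and was called in neither comparison with beta libraries. Among 10 tested target genes of interferon gamma, 3 rose and 1 fell in delta against beta libraries (37.4% and 13.3% of all tested genes), and 1, Irf7, fell in alpha against beta libraries (30.3% of all). The delta count of 3 was 0 without delta replicate 1 and 1 with median-ratio scaling or without delta replicate 2 or beta replicate 1, 2 or 4, and the 1 lower call, Cxcl10, was lost without either delta replicate or without beta replicate 1, 2, 3 or 5. Leaving out alpha replicate 1 gave 4 higher calls in alpha libraries.

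Relatives of Il1r1 differed in both directions. Of 7 tested genes of the interleukin 1 and 17 receptor family, 4 rose and 1 fell in delta against beta libraries (37.4% and 13.3% of all tested genes), and 1 rose and 2 fell in alpha against beta libraries (23.7% and 30.3% of all). In delta libraries 2 rose with a filter of 5 libraries, and 2 fell with median-ratio scaling. The 1 that rose in alpha libraries, Il17rd, lost its call without alpha replicate 3 or beta replicate 1. Il17rd, an inhibitory member that lacks a known high-affinity ligand, averaged 9.39 RPKM in delta, 0.346 RPKM in alpha and 0.117 RPKM in beta libraries (delta versus beta 3.22, adjusted p = 3.42e-08). Il17re, the receptor chain for interleukin 17C, averaged 11.5, 0.315 and 5.48 RPKM in delta, alpha and beta libraries, rising by 0.95 in delta (adjusted p = 0.000451) and falling by 2.30 in alpha libraries (adjusted p = 6.41e-07) against beta libraries. Il1r2, the decoy receptor that binds interleukin 1 without signalling, averaged 0.207, 1.67 and 1.67 RPKM in delta, alpha and beta libraries and fell by 1.14 in delta against beta libraries (adjusted p = 0.00345), as Il1r1 did. The ratio of Il1r1 to Il1rap, its co-receptor, was 34.7 and 30.3 in delta libraries, 195 to 289 in alpha libraries and 196 to 293 in beta libraries.

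Downstream of these receptors, 11 genes of the interleukin 1 and NF-kB route were tested: 2 rose and 2 fell in delta against beta libraries (37.4% and 13.3% of all tested genes), and 4 fell and 7 were not called in alpha against beta libraries (30.3% of all fell). The higher count in delta libraries was 0 without delta replicate 1 or with median-ratio scaling, and 1 without delta replicate 2 or beta replicate 1, 2 or 4. Tollip, an adaptor that restrains interleukin 1 signalling, averaged 45.5, 30.5 and 70.5 RPKM in delta, alpha and beta libraries and was called lower in both comparisons with beta libraries. Nfkbia and Rela were called in neither.

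Most ligands of these receptors were scarce. Prl and Gh averaged at most 0.0548 RPKM in any type, Il6 at most 0.327 RPKM, and 3 of the 13 listed ligand genes could be tested. Ctf1, which encodes cardiotrophin 1, a ligand of gp130, averaged 6.02, 1.56 and 3.39 RPKM in delta, alpha and beta libraries. It rose by 0.69 in delta against beta libraries (adjusted p = 0.0183), a call lost without either delta replicate or with median-ratio scaling, and fell by 0.79 in alpha against beta libraries (adjusted p = 0.00483). Il1b averaged 0.115, 0.131 and 3.77 RPKM in delta, alpha and beta libraries and fell by 2.07 and 2.05 in delta and alpha against beta libraries (adjusted p = 3.57e-05 and 1.54e-05). Il1rn, the natural antagonist of Il1r1, averaged 0.390, 0.327 and 2.59 RPKM and fell likewise (-1.37 and -1.46, adjusted p = 0.000256 and 6.81e-05). Both are abundant in macrophages. The immune marker Lyz2 averaged 0, 0.0181 and 5.48 RPKM in delta, alpha and beta libraries, and the immune marker C1qa 65.6, 14.2 and 28.9 RPKM. Of 11 tested immune markers, 10 were called lower in delta than in beta libraries and 1, C1qa, higher (13.3% and 37.4% of all tested genes). All 11 were called lower in alpha than in beta libraries (30.3% of all). Some of them, Lyz2 among these, reached the level needed for testing only in beta libraries, which fixed their direction. The part of immune cells in the beta values of Il1b and Il1rn was not tested.

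The kinases and STAT factors that these receptors use were present in all 3 types. Of 10 tested Jak and Stat genes, 3 rose and 1 fell (Stat3) in delta against beta libraries (37.4% and 13.3% of all tested genes), and 3 fell (Jak1, Stat3 and Stat5a) and 7 were not called in alpha against beta libraries (30.3% of all fell). With median-ratio scaling the delta counts were 2 higher and 3 lower. The 3 higher delta calls were lost without delta replicate 1, and the lower one without either delta replicate or beta replicate 3. Without alpha replicate 1, 2 genes were called higher in alpha libraries. Stat5b averaged 16.3, 14.4 and 16.9 RPKM and Stat5a 4.10, 3.29 and 4.84 RPKM in delta, alpha and beta libraries. Jak2, the kinase of the prolactin and growth hormone receptors, averaged 16.0, 9.09 and 9.96 RPKM and was not called in delta against beta libraries (0.72, adjusted p = 0.0509).

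Among 16 tested Socs, Ptpn, Pias and Sh2b genes listed beside Cish and Socs2, 8 rose and 1 fell in delta against beta libraries (37.4% and 13.3% of all tested genes). In alpha against beta libraries 5 rose and 2 fell (23.7% and 30.3% of all). Whether each of these genes inhibits the receptors was not tested. The delta counts were 3 and 1 without delta replicate 1, 5 and 0 without delta replicate 2, and 5 and 3 under median-ratio scaling, and 2 fell without alpha replicate 1. The count that rose in alpha libraries was 3 without alpha replicate 2 and 1 without alpha replicate 3. Socs3, induced mainly by gp130 signalling, averaged 21.8 ± 2.27 RPKM in delta (SD, n = 2), 44.2 ± 16.9 RPKM in alpha (n = 3) and 18.9 ± 6.40 RPKM in beta libraries (n = 5), and rose by 1.20 in alpha against beta libraries (adjusted p = 0.0123). Alpha replicate 1 read 24.7 RPKM, within the beta range of 12.5 to 27.0 RPKM. Alpha replicates 2 and 3 each read 53.9 RPKM and carry a b in their titles. So do beta replicates 3 and 5, the highest beta libraries (27.0 and 23.7 RPKM). The part of this b in the Socs3 level was not tested. Ptpn11, the phosphatase Shp2 that binds gp130, averaged 46.9, 32.7 and 64.8 RPKM and fell in both delta and alpha libraries against beta libraries (-0.45 and -0.94, adjusted p = 0.00529 and 2.67e-05).

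A list of 14 genes linked to lactogen or growth hormone action held 10 tested genes, of which 3 rose and 2 fell in delta against beta libraries (37.4% and 13.3% of all tested genes) and 1 rose and 6 fell in alpha against beta libraries (23.7% and 30.3% of all). The delta counts were 0 and 1 without delta replicate 1, 0 and 2 without delta replicate 2, and 2 and 3 with median-ratio scaling. The serum carrier gene Igfals, a growth hormone target in liver, averaged 7.16, 12.6 and 42.4 RPKM in delta, alpha and beta libraries, and fell in both (-2.38 and -1.65, adjusted p = 1.58e-05 and 6.8e-05). Tnfrsf11b, which encodes osteoprotegerin and is induced by lactogens in mouse beta cells, averaged 11.6, 0.667 and 6.56 RPKM, rising by 0.76 in delta (adjusted p = 0.0138) and lower in alpha libraries (-2.16, adjusted p = 1.39e-05), each against beta libraries. The list does not follow the level of Prlr as a whole: Igfals was highest where Prlr was highest, and Tnfrsf11b and Ccnd1 were highest in delta libraries.

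**Figure D4:**
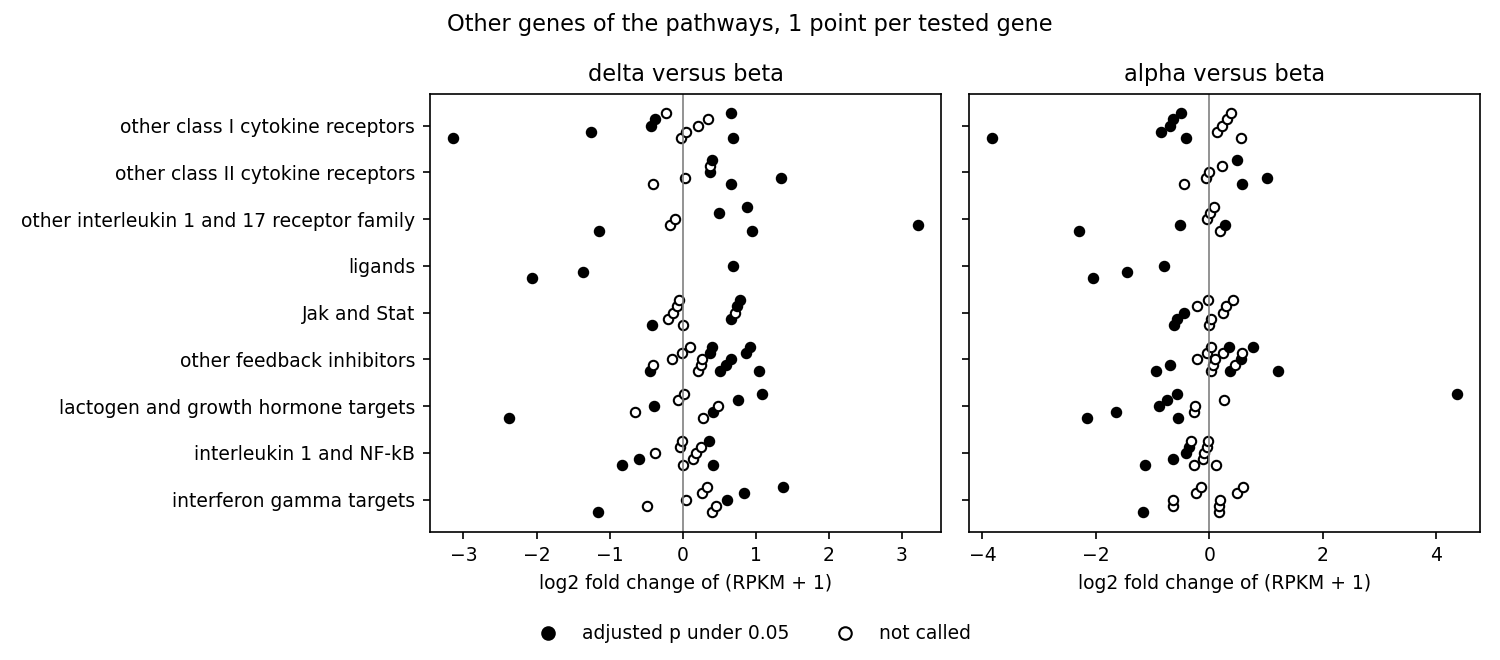
Log2 fold change of (RPKM + 1) (x axis) of each tested gene of the other lists, delta versus beta on the left and alpha versus beta on the right. Each point is 1 gene, filled where called at an adjusted p under 0.05. The list labelled other feedback inhibitors holds Socs, Ptpn, Pias and Sh2b genes, whose inhibition of the receptors was not tested. The points farthest below 0 among class I receptors are Cntfr, and the point farthest above 0 in the interleukin 1 and 17 receptor family is Il17rd in delta versus beta libraries.

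Genes with the pattern closest to each receptor were ranked by Pearson's r of log2(RPKM + 1) over the 10 libraries among 8754 tested genes with a mean of at least 5 RPKM. Closest to Prlr were Ncbp1 (r = 0.998), Pde5a (r = 0.998) and Gpr158 (r = 0.997), which averaged 23.2, 1.66 and 1.10 RPKM in delta, 22.1, 0.949 and 0.564 RPKM in alpha, and 34.9, 16.2 and 21.7 RPKM in beta libraries. Closest to Ghr were Pvrl3 (r = 0.995), Rell1 (r = 0.994) and Jade1 (r = 0.992), each highest in delta and lowest in alpha libraries. For Il1r1 they were Ell2 (r = 0.973), Nrcam (r = 0.966) and Syn2 (r = 0.962), and for Cish they were Tmem98 (r = 0.978), Ddx39b (r = 0.972) and Gprc5c (r = 0.964). Socs2 was closest to Cdh8 (r = 0.984), Il6st to Herc1 (r = 0.962), Ifngr1 to Tmem128 (r = 0.976) and Il6ra to Ankrd44 (r = 0.938). The 10 libraries of 3 types give few independent points, so these coefficients rank genes and are no test.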

How the data were processed

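RNA was sequenced from FACS-sorted delta, alpha and beta cells of mouse islets (10 libraries). The authors deposited 1 table of RPKM values per gene and library. The submitters' processing notes name genome build GRCm38.p3 with STAR 2.4 as well as featureCounts and, among the authors' tools, edgeR 3.12.0. Neither the annotation nor the treatment of reads fitting several genes is given in the sources used here. Per the labels' protocols, the TruSeq RNA kit (version 2) was used, whose reads do not keep the strand, so overlapping antisense transcripts cannot be told apart. RPKM are shares of a library, so very abundant hormone transcripts lower all other values.

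Library totals were recovered from the steps of low RPKM values, to within 0.029 of a whole number (99.7% of 2166 low genes gave a whole length). The totals were 20209291 and 18570481 reads for delta, 16688097, 16880700 and 17441439 for alpha, and 26223644, 24431004, 17755859, 23236294 and 26684086 for beta replicates. Read numbers of single genes use the shortest gene length that fits the values, which for Prlr is the only one. Floors and read numbers cover counting error only. Replicate numbers are names in accession order. Pairs of libraries of a type had a chi-square of at least 20.9 per gene, and none was treated as a repeat.

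Log2(RPKM + 1) was fitted over all 10 libraries by cell type and sex, using limma 3.58.1 (R 4.3.3) and its mean-variance trend. Genes with at least 1 RPKM in at least 2 libraries were tested (12700), with Benjamini-Hochberg adjustment over all of them. Fold changes understate those of low genes. The interaction of cell type and sex used the alpha and beta libraries. The alternatives were a pseudocount of 0.1, median-ratio scaling, no filter, a filter of 5 libraries, no second term, no trend, the 2 cell types alone and each library left out. Counts of the other lists under these alternatives, and 3 alternatives based on the numbers and the b in the titles, were added after seeing the data.

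The 10 genes, the other lists and the tests were chosen with earlier results of these data known. Beside them, the text names from each other list up to 4 called genes with the largest change in each comparison with beta libraries, the 2 uncalled genes with the highest mean, listed ligands, any marker as a level, and the 3 genes most like each tested receptor or inhibitor. Il1rap, named for its ratio to Il1r1, falls outside this rule. Some genes that the rule would name are not reported here. Coordinates are 1-based, from GENCODE for GRCm38 and from the RefSeq promoter table for GRCm38.p6.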

Additional observations from a re-analysis of the deposited data

How the results depend on the processing

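Of the differences of single genes between cell types, none changed sign with a call under the alternatives run. The count of genes called higher in delta than in beta libraries was 3 as reported and 1 with median-ratio scaling or no filter on low values, and ran between 1 and 3 when each library was left out. It was 1 without delta replicate 1, delta replicate 2, alpha replicate 1 or beta replicate 1. The count called lower in delta than in alpha libraries was 1 as reported, 2 with median-ratio scaling or the 2 cell types alone, and 1 to 2 when each library was left out, with 2 without beta replicate 1. In delta versus beta libraries 32 of 136 values lost a call and 1 gained it, in alpha versus beta 1 of 136 lost it, and in delta versus alpha 1 lost and 5 gained it. Prlr, Il1r1 and Cish kept their delta versus beta calls in all 17 alternatives. Over all genes, 6442 were called in delta versus beta libraries, 3273 without delta replicate 1 and 4291 without delta replicate 2. In delta versus alpha libraries 4824 were called, 3170 with median-ratio scaling and 2681 and 2958 without those replicates, and for the interaction 1 gene with median-ratio scaling against 0. The cause was not tested. With 2 delta libraries, each of them weighs heavily, and under 3 reads a level cannot be told from 0. Within the 4 pairs with consecutive title numbers, deviations from the cell type means correlated over tested genes at r = 0.001 to 0.464. The values were 0.464 for alpha replicate 3 with beta replicate 5, 0.372 for delta replicate 2 with beta replicate 2, and 0.269 for alpha replicate 2 with beta replicate 3. In these pairs each library correlated best with its numbered partner among libraries of the partner's type. For alpha replicate 2 the next best beta library was close, at r = 0.259. Alpha replicates 2 and 3 and beta replicates 3 and 5 all carry a b, so pairing and a shared b cannot be told apart there. Delta replicate 1 gave 0.001 with beta replicate 1 and correlated best with another beta library (r = 0.362). The deviations of the 2 delta libraries mirror each other, so their values are not independent and the better delta partner follows from the sign alone. The labels do not state which libraries are paired, and the reported fit used no pairing. With a replicate block for these numbers, chosen after seeing the data, delta libraries had 5 higher and 2 lower calls against beta libraries, where Ifngr1 (0.36, adjusted p = 0.0444) and Socs2 (0.43, adjusted p = 0.0225) gained a call and Il6ra lost it (adjusted p = 0.153). The other counts of the 8 genes were as reported under this block, and 7906, 5748 and 5344 of all genes were called in delta versus beta, alpha versus beta and delta versus alpha libraries. With the b of the titles as a term, Ifngr1 gained (adjusted p = 0.0438) and Il6ra lost (adjusted p = 0.0576) its call in delta versus beta libraries. Without the 4 libraries with a b, 1 alpha library is left and assumed to vary like the other types: 0 genes were called higher and 1 lower in alpha than in beta libraries, and 2 higher and 0 lower in delta than in alpha libraries. Calls lost there were Ghr, Il6st, Ifngr1 and Socs2 in alpha versus beta (adjusted p = 0.0786, 0.264, 0.0813 and 0.45), Il1r1, Cish and Socs2 in delta versus alpha (adjusted p = 0.0614, 0.0535 and 0.165), and Il6ra and Il6st in delta versus beta libraries (adjusted p = 0.255 and 0.104).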
